A study of Mus musculus with 9 samples.

Results

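The 9 genes described here, C3, C4b, C1ra, C1s1, C1rl, Cfb, Serping1, Cfi and Cd55, encode components and regulators of the complement system and were taken by name from the 24062 genes of the count table. Gamma irradiation had driven fibroblasts from C57BL/6 mouse embryos into senescence, a lasting arrest of division in which cells live on and release many factors, and their RNA was sequenced. All 3 groups were infected with lentivirus on day 10 after irradiation. The virus of the control group encoded a scrambled hairpin (shScr), and those of the other groups encoded separate short hairpins, shRela-1 or shRela-2, that target Rela. Rela encodes p65, a subunit of the NF-kB transcription factor, and each group had 3 samples. Unirradiated cells are not among these groups, so every value below compares senescent cells with senescent cells. The comparison asks which transcripts of senescent cells depend on p65.

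Complement is a chain of blood and tissue proteins that marks cells and microbes for removal. In the classical pathway C1q binds a surface and switches on the proteases C1r and C1s, which cut C4 and C2 to form an enzyme that cuts C3. In the alternative pathway factor B, the product of Cfb, forms the C3-cutting enzyme with C3 itself. The liver makes most of the complement in blood, and fibroblasts are also known to make several components. C3 and factor B are textbook targets of NF-kB and of acute phase signalling.

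Total counts per sample ran from 49774667 to 67963506. The targeted transcript, Rela, stood at 85.2 ± 1.84 CPM (counts per 1e6 of the scaled library total; SD, n = 3) in shScr. It fell under shRela-1 to 13.6 ± 0.487 CPM, and under shRela-2 to 13.9 ± 0.768 CPM. All 8 fibroblast markers were detected. Their summed levels were 34210 to 36812 CPM in shScr, 38689 to 38918 CPM under shRela-1 and 34135 to 34763 CPM under shRela-2. Any part of this difference in the results for the members was not tested. All 8 markers of macrophages and blood cells were detected too, with sums from 332 to 566 CPM. Of 5 hepatocyte markers, Ttr was at 0 in every sample and the sum stayed between 0.0965 and 0.612 CPM. In bulk RNA, fewer cells of a type and less RNA per cell cannot be told apart. A dataset tag stands in the titles of the control samples and is missing from those of the shRela samples, so any batch that goes with this tag cannot be told apart from the control group. It does not bear on the contrast between the hairpins.

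C3 and Cd55 were the members that fell with shRela-2, C3 to 43.6 ± 2.17% and Cd55 to 73.0 ± 7.55% of the shScr mean (SD, n = 3). Cd55 rose with shRela-1, to 168 ± 21.4%. Between the hairpins, C1rl was higher with shRela-2, and C3 and Cd55 were lower. C1ra, C1s1, Cfb, Serping1 and C4b passed the test in none of the 3 contrasts between groups, and Cfi was too low to be tested. These calls leave the replicate number out of the fit. With that number as a block, given below, C1ra, Cfb and Serping1 passed too, and C3 and C1rl passed in further contrasts.

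Of the 8 tested members, 1 rose and 0 fell with shRela-1, where 12.3% of the 15369 genes tested rose and 12.4% fell (edgeR's quasi-likelihood test, Benjamini-Hochberg adjusted p under 0.05). At an unadjusted p under 0.05, 1 member fell, and 1 fell by DESeq2 and by limma voom. With shRela-2, 0 members rose and 2 fell, against 15.4% and 15.4% of all genes (1 rose at an unadjusted p under 0.05, by DESeq2 and by limma voom). Between the hairpins 1 member was higher with shRela-2 and 2 were lower, against 20.0% and 19.9% of all genes. Counts this small among 8 genes lie near those shares. The medians of the log2 fold changes over the 8 members were 0.08, -0.09 and -0.17, beside 0.00, -0.00 and 0.00 over all genes tested.

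Same-numbered samples of the 3 groups deviated together, so the fit with the replicate number as a block is given where it changes a call. With the block 2 members rose and 2 fell with shRela-1 (20.4% and 18.9% of all genes), 1 rose and 4 fell with shRela-2 (22.2% and 22.2%), and 1 rose and 4 fell between the hairpins (25.8% and 26.1%). The contrasts of the hairpins with shScr use the same control samples.

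**Figure D1:**
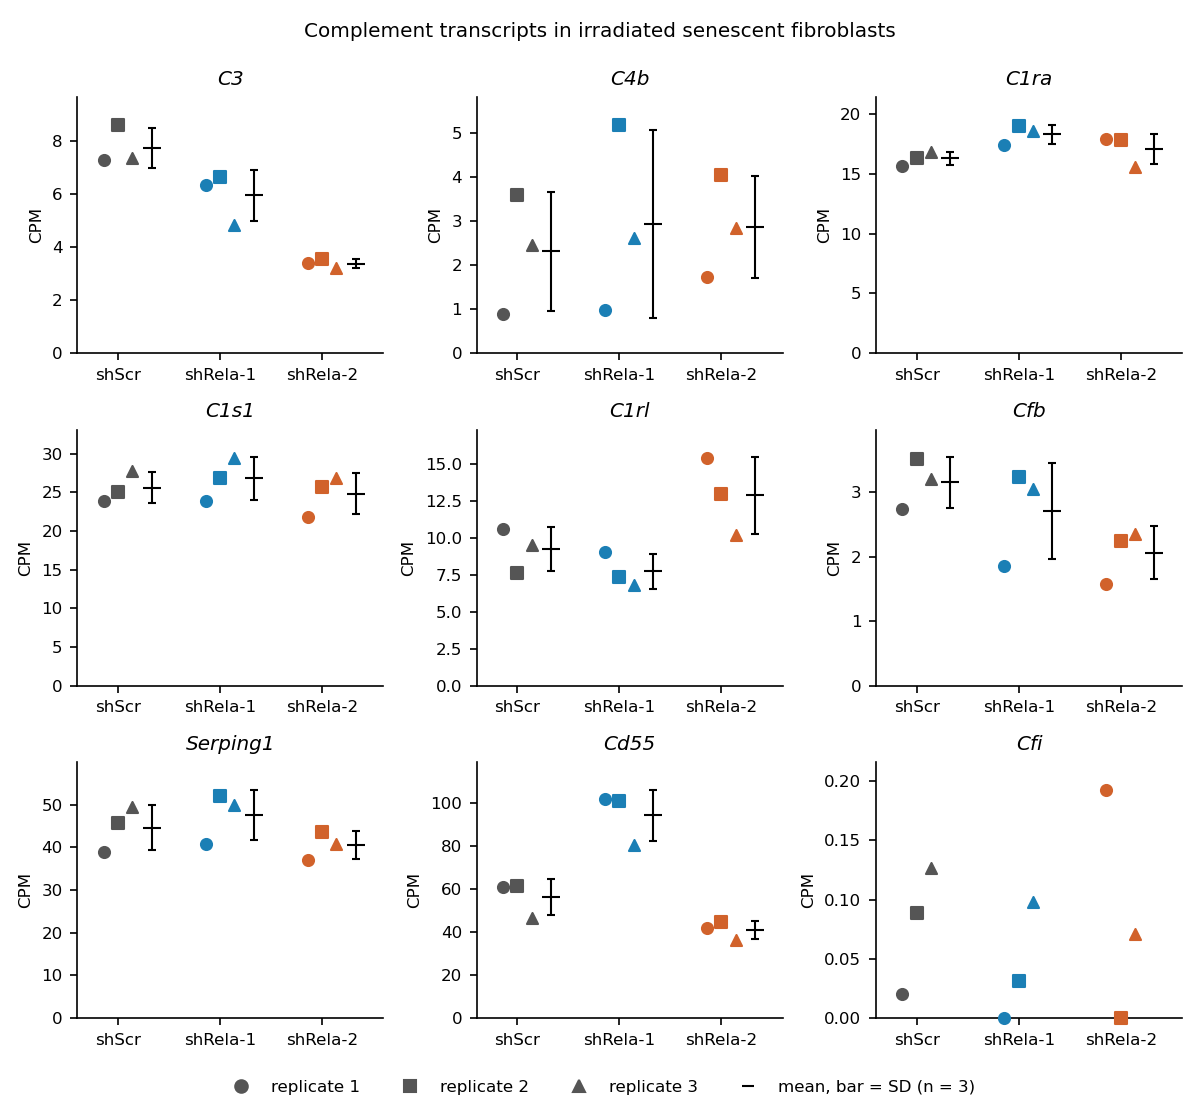
Level of each complement transcript in CPM (y axis, from 0), in the 3 samples of each group. Symbols mark the replicate number, and black marks show the mean with the SD (n = 3), left out for Cfi because of its low counts. C3 is lowest in the 3 shRela-2 samples (3.20 to 3.54 CPM), and Cd55 is highest in the 3 shRela-1 samples (80.4 to 102 CPM).

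Promoter sequence was taken for the members in RefSeq's table for GRCm38.p6, the same assembly as mm10. It held 5 of the 9 members, and C4b, Cfb, Serping1 and Cfi were not matched. The 250 bases before the start are printed for C3, C1rl and Cd55, the members that differed between the hairpins, 5′ to 3′ on the gene's strand: chr17:57228137-57228386 (minus strand), chr6:124492863-124493112 (plus strand) and chr1:130462745-130462994 (minus strand). Capitals mark a match to the C/EBP motif TTNNGNAAT, and the C1rl and Cd55 windows hold none.
C3: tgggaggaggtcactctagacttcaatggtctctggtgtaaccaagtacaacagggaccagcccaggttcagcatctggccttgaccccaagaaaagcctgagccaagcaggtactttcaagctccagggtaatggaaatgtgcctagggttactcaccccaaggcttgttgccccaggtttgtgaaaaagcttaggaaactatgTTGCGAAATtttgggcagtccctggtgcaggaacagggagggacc
C1rl: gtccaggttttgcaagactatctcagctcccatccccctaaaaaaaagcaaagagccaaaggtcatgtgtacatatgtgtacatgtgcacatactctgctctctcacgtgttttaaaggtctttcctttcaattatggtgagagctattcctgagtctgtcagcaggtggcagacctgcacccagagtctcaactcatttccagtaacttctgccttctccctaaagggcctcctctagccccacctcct
Cd55: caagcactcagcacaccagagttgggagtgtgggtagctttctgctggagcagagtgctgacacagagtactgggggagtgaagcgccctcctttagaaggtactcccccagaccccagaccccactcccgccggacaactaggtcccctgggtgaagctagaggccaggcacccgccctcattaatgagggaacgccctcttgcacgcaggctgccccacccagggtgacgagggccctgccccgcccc

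These windows, extended by 50 bases after the start, were searched on both strands for 4 motifs. C/EBP factors, which act in the acute phase response, were searched as TTNNGNAAT, which 11.5% of 32841 mouse promoters of that length hold. C3 had 1 match, TTGCGAAAT, whose first base lies at -45 from the start. C1ra had 2 matches, at -73 and -30, C1s1 had 2 in the window of its outer start, of which 1 also lies in the window of its inner start, and C1rl and Cd55 had none.

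The NF-kB consensus, present in 8.46% of promoters, and the interferon-stimulated response element, present in 3.44%, were found in none of the 5 members. The GAS element TTCNNNGAA, which STAT factors bind and 8.30% of promoters hold, was found once, in C1ra, as TTCCCTGAA at 33 bases after the start. No matches of different motifs overlapped. C1ra and C1s1, with matches to the C/EBP motif, did not pass with shRela-2, whereas Cd55, with none, fell, and any part of these motifs in the results was not tested. A match is a description of the letters, and a missing match says only that the letters are not in this window.

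C3, on chromosome 17 (57203970 to 57228136, minus strand, mm10), encodes the central component on which all complement pathways meet. Its level was 7.26, 8.61 and 7.33 CPM in shScr replicates 1 to 3, 6.33, 6.64 and 4.84 CPM under shRela-1, and 3.38, 3.54 and 3.20 CPM with shRela-2. The 3 groups did not overlap: the shScr samples were the highest, the shRela-1 samples lay between, and the shRela-2 samples were the lowest. With shRela-2 the log2 fold change was -1.20 ± 0.13 (SE; adjusted p = 8.73e-05), and without single libraries it ran from -1.24 to -1.11 and passed each time. With shRela-1 it was -0.38 ± 0.13, with a 95% interval from -0.66 to -0.10 (adjusted p = 0.0516). That value passed with the replicate block (adjusted p = 0.00224), without shRela-1 replicate 2 (0.0404), by DESeq2 (0.0263) and by limma voom (0.0369).

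The hairpins lowered Rela to nearly the same level, and C3 still differed between them by -0.81 ± 0.13 on the log2 scale (adjusted p = 0.000631). Within same-numbered pairs, C3 under shRela-2 stood below shScr by -1.10, -1.27 and -1.18, and under shRela-1 by -0.20, -0.37 and -0.59. All 6 pairs with the control were lower, which follows from groups that do not overlap. Among the 8 macrophage and blood cell markers 1 fell with shRela-2 (5 with the block), beside 15.4% of all genes (22.2% with the block). The median log2 fold change of these 8 markers was -0.24 with shRela-2 and -0.01 with shRela-1. Their part in the C3 result was not tested.

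Cfb lies on the same chromosome (34856374 to 34862518, minus strand) and encodes factor B, the catalytic subunit of the alternative C3-cutting enzyme. Its level was 2.73, 3.51 and 3.20 CPM in shScr, 1.85, 3.23 and 3.05 CPM under shRela-1, and 1.58, 2.24 and 2.35 CPM with shRela-2. The shRela-2 samples lay below all shScr samples, while the shRela-1 samples overlapped both other groups. The log2 fold change with shRela-2 was -0.61 ± 0.22, with a 95% interval from -1.11 to -0.12 (adjusted p = 0.0612). It passed with the replicate block (-0.62 ± 0.14, adjusted p = 0.00102), by DESeq2 (0.0279), without shRela-1 replicate 1 (0.0196) and with only the 2 groups compared in the fit (0.0322). With shRela-1 the value was -0.22 ± 0.22 (adjusted p = 0.528), and it ran from -0.36 to -0.01 without single libraries.

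Between the hairpins Cfb had -0.39 ± 0.22 (adjusted p = 0.194), which passed with the block (0.0261) and without shRela-1 replicate 1 (-0.61, adjusted p = 0.0279). Of the annotated exon bases of Cfb, 79.5% are shared with Gm20547, a gene model on the same strand that also covers C2. Gm20547 has no row in the count table, and no source used here gives how reads in such overlaps were assigned.

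C1ra, C1s1 and C1rl lie side by side on chromosome 6, at 124512405 to 124523443, 124530345 to 124542359 and 124493113 to 124510643. C1ra and C1s1 encode the proteases C1r and C1s of the first complement complex. C1rl encodes a protease related to C1r. C1ra was at 15.7, 16.3 and 16.8 CPM in shScr, 17.4, 19.0 and 18.6 CPM under shRela-1, and 17.9, 17.8 and 15.6 CPM with shRela-2. All 3 shRela-1 samples were above all 3 shScr samples. The log2 fold change of C1ra was 0.17 ± 0.0693 with shRela-1 (adjusted p = 0.0989, or 0.0403 with the replicate block) and 0.07 ± 0.0695 with shRela-2 (adjusted p = 0.485).

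C1s1 was at 23.9, 25.1 and 27.8 CPM in shScr, 23.9, 26.8 and 29.5 CPM under shRela-1, and 21.8, 25.7 and 26.9 CPM with shRela-2. The 3 groups overlapped throughout, and in each of them replicate 1 was the lowest and replicate 3 the highest. The 95% intervals of its log2 fold changes were -0.15 to 0.28 under shRela-1 and -0.26 to 0.17 under shRela-2, so changes of the size seen for C3 with shRela-2 lie outside them. Of the exon bases of C1s1, 18.4% overlap Gm16567 on the opposite strand, and the library kit does not mark strand. Reads of C1ra and C1s1 may also be split with the paralogs C1rb and C1s2, which had at most 15 and 30 counts in a sample.

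C1rl separated the hairpins. It stood at 10.6, 7.66 and 9.54 CPM in shScr, 9.08, 7.35 and 6.83 CPM under shRela-1, and 15.4, 13.0 and 10.2 CPM with shRela-2. Every shRela-2 sample was above every shRela-1 sample, and each hairpin's samples overlapped those of shScr. The difference between hairpins was 0.73 ± 0.17 on the log2 scale (adjusted p = 0.00548) and ran from 0.58 to 0.87 without single libraries, where it always passed.

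Against shScr, C1rl had 0.48 ± 0.17 with shRela-2 (adjusted p = 0.0541) and -0.26 ± 0.17 with shRela-1 (adjusted p = 0.318). With the replicate block both passed, in opposite directions (adjusted p = 0.000235 and 0.0325). The value with shRela-2 also passed without shScr replicate 1 (0.0399), shRela-1 replicate 1 (0.0434) or shRela-2 replicate 3 (0.0193), by DESeq2 (0.0139), by limma voom (0.0470) and with no filter on low counts (0.0442). Within same-numbered pairs it was higher than shScr in 3 of 3 with shRela-2 (0.54, 0.76 and 0.10) and lower in 3 of 3 with shRela-1 (-0.23, -0.06 and -0.48).

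C4b, on chromosome 17 (34728380 to 34743882, minus strand), encodes complement C4, the substrate of C1s. Its level was 0.897, 3.59 and 2.45 CPM in shScr, 0.966, 5.19 and 2.62 CPM under shRela-1, and 1.72, 4.04 and 2.85 CPM with shRela-2. The groups overlapped, and the replicate number ordered the samples more than the hairpin did. Samples numbered 1 held 0.897 to 1.72 CPM, those numbered 2 held 3.59 to 5.19 CPM, and those numbered 3 held 2.45 to 2.85 CPM. The standard deviation was 58.4% of the mean in shScr and 72.7% in shRela-1, against 9.86% and 16.2% for C3.

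The log2 fold changes of C4b were 0.32 ± 0.57 with shRela-1 and 0.30 ± 0.58 with shRela-2 (adjusted p = 0.742 and 0.747). The intervals, -0.95 to 1.60 and -0.98 to 1.58, were the widest among the 8 tested members. The sign was lost without shScr replicate 1 (-0.04 and -0.07), and also without shRela-1 replicate 2 for shRela-1 (-0.38) and without shRela-2 replicate 2 for shRela-2 (-0.03). With the replicate block the standard errors fell to 0.17, and the values were 0.29 (adjusted p = 0.195) and 0.37 (adjusted p = 0.0873). C4b was higher than its same-numbered control in 3 of 3 pairs with each hairpin.

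The summed markers of macrophages and blood cells followed the replicate number in the same order, with 332 to 390 CPM in samples numbered 1, 507 to 566 CPM in those numbered 2 and 358 to 436 CPM in those numbered 3. C1qb, a chain of C1q that macrophages are known to make, stood at 16.2 to 23.4, 28.2 to 38.7 and 22.9 to 28.8 CPM. Their part in the spread of C4b was not tested. C4a, a close copy of C4b that could take part of its reads, was at 1.28, 1.35 and 1.03 CPM on average in shScr, shRela-1 and shRela-2, and did not pass the test in any contrast.

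**Figure D2:**
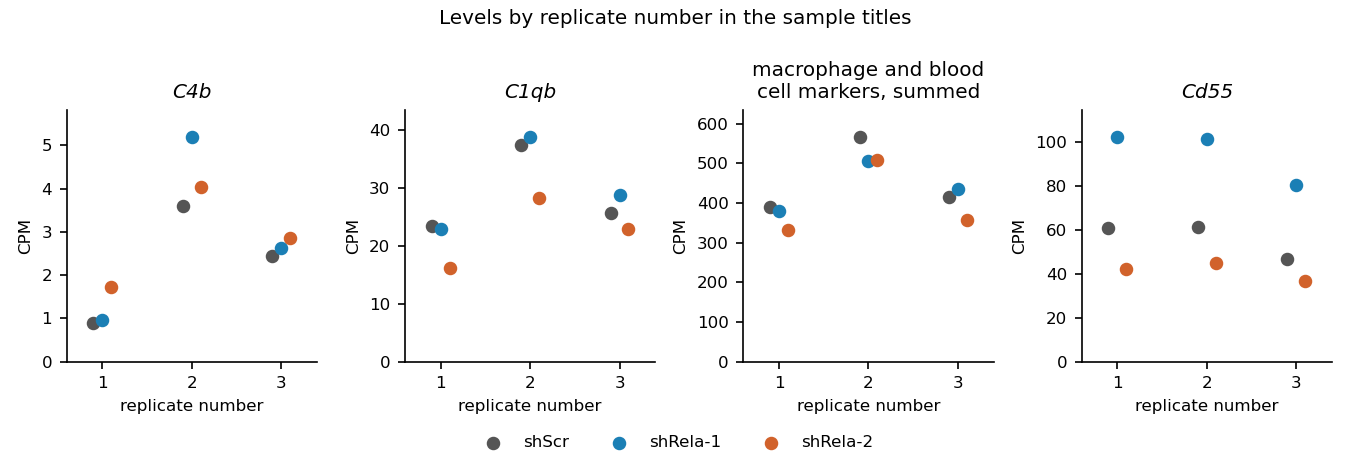
Levels in CPM (y axes, from 0) of C4b, C1qb, the 8 summed markers of macrophages and blood cells, and Cd55, against the replicate number in the sample titles (x axis), with 1 point per sample coloured by group. C4b, C1qb and the marker sum, most of it Lyz2, are highest in the samples numbered 2, whereas Cd55 separates by hairpin within each number.

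Serping1, on chromosome 2 (84765387 to 84775444, minus strand), encodes the C1 inhibitor, which blocks C1r and C1s. It stood at 39.0, 45.6 and 49.4 CPM in shScr, 40.9, 52.1 and 49.9 CPM under shRela-1, and 37.0, 43.6 and 40.9 CPM with shRela-2. The groups overlapped, and replicate 1 was the lowest in each. The log2 fold changes were 0.09 ± 0.10 with shRela-1 and -0.14 ± 0.11 with shRela-2 (adjusted p = 0.584 and 0.354). The second passed with the replicate block (adjusted p = 0.0160), as did the difference between hairpins (-0.23, adjusted p = 0.103 without and 0.000166 with the block). That difference also passed without shRela-1 replicate 1 (-0.34, adjusted p = 0.0177).

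Cd55, on chromosome 1 (130439027 to 130462744, minus strand), encodes decay-accelerating factor, a surface protein that breaks up the C3-cutting enzymes and so shields a cell from complement. Its level was 60.8, 61.4 and 46.6 CPM in shScr, 102, 101 and 80.4 CPM under shRela-1, and 42.0, 44.8 and 36.4 CPM with shRela-2. The 3 groups did not overlap, and replicate 3 was the lowest in each. The log2 fold change was 0.75 ± 0.12 with shRela-1 (adjusted p = 0.00132) and -0.45 ± 0.12 with shRela-2 (adjusted p = 0.0172). So the hairpins moved Cd55 in opposite directions, and they differed by -1.20 ± 0.12 (95% interval -1.47 to -0.93, adjusted p = 2.53e-05).

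In same-numbered pairs Cd55 changed by 0.74, 0.72 and 0.79 with shRela-1 and by -0.53, -0.45 and -0.35 with shRela-2. The rise with shRela-1 passed without each single library, and its log2 fold change then ran from 0.63 to 0.85. The fall with shRela-2 did not pass without shScr replicate 1 (-0.39, adjusted p = 0.0565), shScr replicate 2 (-0.39, 0.0629) or shRela-2 replicate 3 (-0.37, 0.0679). With the replicate block the adjusted p of the fall was 7.03e-09. Summed markers of epithelial cells, which also carry CD55, were 4.78 to 9.67 CPM in shScr. They were 9.31 to 18.6 CPM under shRela-1 and 4.83 to 8.12 CPM under shRela-2. Most of this sum was Krt18, with means of 5.38, 11.0 and 5.03 CPM in shScr, shRela-1 and shRela-2. Krt8 had means of 1.04, 1.28 and 0.710 CPM, and those of Epcam, Cdh1 and Krt14 were at most 0.187 CPM. Of the 3 tested, 1 was lower with shRela-2 than with shRela-1 (2 with the block), beside 19.9% of all genes (26.1% with the block). With the block 1 of these markers rose with shRela-1, beside 20.4% of all genes. Their part in the Cd55 result was not tested. Of the exon bases of Cd55, 2.1% overlap Gm16083 on the opposite strand, and its paralog Cd55b, listed under the older symbol Daf2, had at most 9 counts in a sample.

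Cfi, on chromosome 3 (129835884 to 129875332, plus strand), encodes factor I, the protease that inactivates C3b and C4b. It had 1, 6 and 8 counts in shScr, 0, 2 and 6 under shRela-1, and 10, 0 and 4 under shRela-2. Cfi did not pass edgeR's filter on low counts, and no test of a difference is given for it. The counts of 0 allow up to 0.0471 CPM in shRela-1 replicate 1 and 0.0491 CPM in shRela-2 replicate 2 (3 counts per library, for counting error only).

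**Figure D3:**
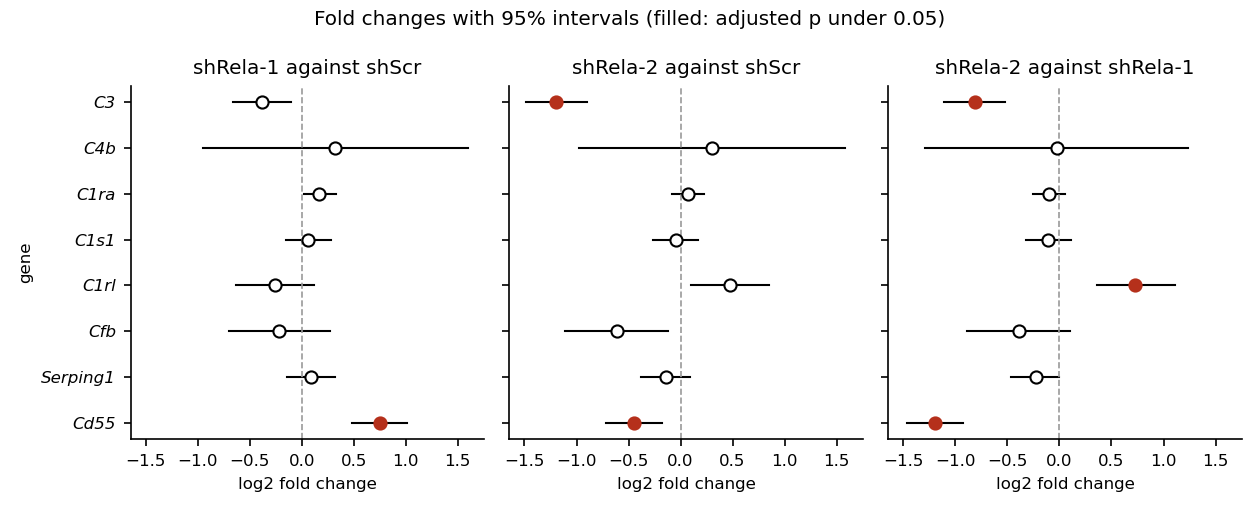
Log2 fold changes (x axis) of the 8 tested complement genes (y axis) in the 3 contrasts, with 95% intervals as lines. Filled points have an adjusted p under 0.05: Cd55 at 0.75 with shRela-1, C3 at -1.20 and Cd55 at -0.45 with shRela-2, and C3, C1rl and Cd55 between the hairpins.

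Groups that did not overlap were counted over the 8 tested members. With shRela-1, 2 members were higher in all samples than in shScr (C1ra and Cd55) and 1 was lower (C3), beside 20.1% and 19.5% of all genes tested. With shRela-2, 0 were higher and 3 were lower (C3, Cfb and Cd55), beside 22.5% and 21.6%. Between the hairpins 1 was higher with shRela-2 (C1rl) and 2 were lower (C3 and Cd55), beside 25.1% and 25.0%.

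Levels of different genes were compared per kilobase of annotated exon, as RPKM. In shScr the order was Serping1 (19.2 ± 2.27 RPKM), Cd55 (11.6 ± 1.73), C1s1 (8.18 ± 0.646), C1ra (5.46 ± 0.183), C1rl (3.08 ± 0.498), C3 (1.50 ± 0.148), Cfb (1.11 ± 0.139), C4b (0.406 ± 0.237) and Cfi (0.0354 ± 0.0245; SD, n = 3). The C1 inhibitor and the surface regulator were thus above all the components among the members, and no neighbours in this order overlapped in shScr. With shRela-1, Cd55 reached 19.4 ± 2.48 RPKM and overlapped Serping1 at 20.5 ± 2.57. Cfb (0.959 ± 0.265) there overlapped C3 (1.15 ± 0.187) and also C4b (0.514 ± 0.374). With shRela-2, C3 (0.656 ± 0.0326), Cfb (0.728 ± 0.147) and C4b (0.504 ± 0.204) overlapped one another, and so did Cd55 (8.46 ± 0.875) and C1s1 (7.94 ± 0.849). The order of the first 2 genes depends on the length used: per longest annotated transcript Cd55 was at 30.1 and Serping1 at 26.9 RPKM with shRela-1, and at 18.0 and 25.3 RPKM in shScr.

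**Figure D4:**
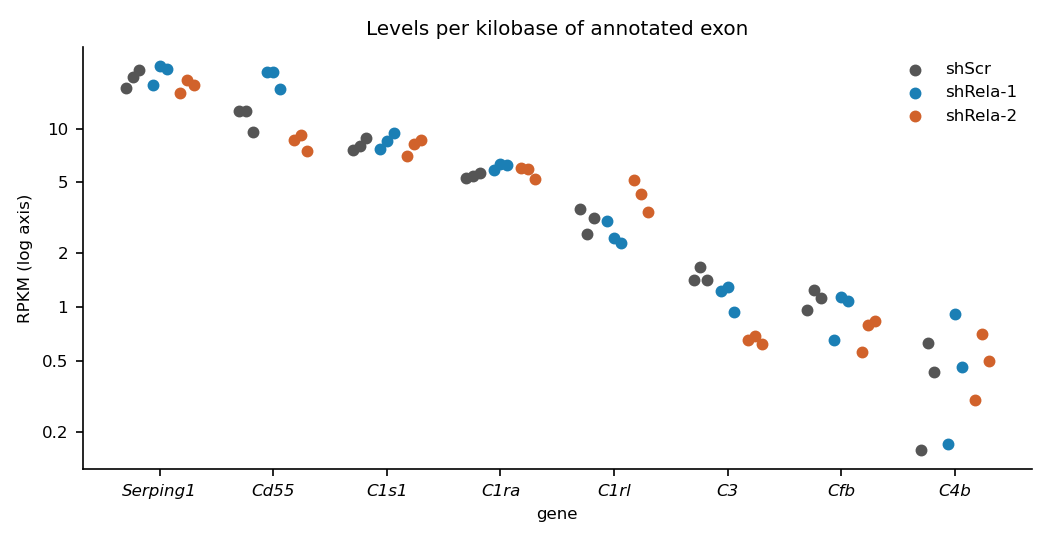
Level per kilobase of annotated exon (RPKM, y axis on a log scale) of 8 complement genes (x axis), with 1 point per sample coloured by group. Serping1 is the highest gene in shScr (mean 19.2 RPKM) and C4b the lowest of those drawn (0.406 RPKM), and the C3 and Cd55 points of shRela-2 lie below those of shScr.

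Regulators known to act on complement genes were read from a list of 17, all of them tested. With shRela-1, 7 fell and 1 rose, beside 12.4% and 12.3% of all genes tested. With shRela-2, 9 fell and 0 rose by edgeR (1 at an unadjusted p under 0.05, by DESeq2 and by limma voom). All genes tested gave 15.4% in each direction there. Rela, the target of the hairpins, is among those that fell in both counts. Besides Rela, the subunit genes Relb (-0.56 and -0.60), Nfkb1 (-0.31 and -0.26) and Nfkb2 (-0.18 and -0.25), the inhibitor gene Nfkbia (-0.46 and -0.63) and Ifngr2, a chain of the interferon gamma receptor (-0.19 and -0.10), fell with both hairpins, given as shRela-1 and shRela-2. The call of Ifngr2 with shRela-2 was lost without any 1 of the 9 libraries (adjusted p from 0.0507 to 0.166). That of Nfkb2 with shRela-1 was lost without shScr replicate 3 (0.113), shRela-1 replicate 1 (0.0753) or shRela-1 replicate 3 (0.108).

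Between the hairpins 4 of the 17 regulators were higher with shRela-2 and 4 were lower, near the 20.0% and 19.9% of all genes tested. With the replicate block 5 were higher and 6 lower, beside 25.8% and 26.1%. Any part of these regulators in the results for C3, C1rl and Cd55 was not tested. Cebpd, which encodes C/EBP-delta, was at 29.3, 26.6 and 23.9 CPM in shScr, 37.3, 33.4 and 25.5 CPM under shRela-1, and 9.71, 8.82 and 7.74 CPM with shRela-2. Cebpb, for C/EBP-beta, stood at 21.8 to 25.5 CPM in shScr, 23.1 to 25.0 CPM under shRela-1, and 15.9 to 17.9 CPM under shRela-2. Both genes were lowest in all 3 shRela-2 samples, and the log2 fold changes with shRela-2 were -1.60 ± 0.14 and -0.50 ± 0.0753 (adjusted p = 2.05e-05 and 0.000645). With shRela-1 the values were 0.27 (adjusted p = 0.171) and 0.01 (adjusted p = 0.961), and that of Cebpd passed without shRela-1 replicate 3 (0.41, adjusted p = 0.0277) and with the replicate block (0.26, adjusted p = 0.000737). Exons of Cebpd overlap those of Spidr, and exons of Cebpb those of Tmem189, on the opposite strand, by 15% and 20.7% of their exon bases.

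Ifngr1, the other chain of the interferon gamma receptor, stood at 44.7 to 45.3 CPM in shScr, 44.9 to 50.1 CPM under shRela-1, and 21.3 to 21.9 CPM under shRela-2 (-1.05 ± 0.0470, adjusted p = 3.06e-07). Irf1, an interferon-induced factor, fell with shRela-1, from 12.1 to 14.2 CPM down to 5.54 to 6.49 CPM (-1.15 ± 0.11, adjusted p = 3.86e-05), and had 10.6 to 13.6 CPM with shRela-2 (-0.17, adjusted p = 0.276). Il6st, the shared receptor chain of the IL-6 family, rose with shRela-1 (0.32, adjusted p = 0.00239) and had -0.17 with shRela-2 (adjusted p = 0.0526). The second value passed with the replicate block (-0.17, adjusted p = 0.000111) and without shRela-1 replicate 2 (0.0410), shRela-1 replicate 3 (0.0409) or shRela-2 replicate 1 (0.0415). Irf9, a partner of STAT factors (0.36, adjusted p = 0.0376), and the TNF receptor gene Tnfrsf1a (0.15, adjusted p = 0.0475) were higher with shRela-2 than with shRela-1. The Irf9 call was lost without 4 single libraries (shScr replicate 3, shRela-1 replicate 1 or 3, or shRela-2 replicate 1) and the Tnfrsf1a call without 6 (all but shScr replicate 1, shRela-1 replicate 1 and shRela-2 replicate 3). Of the exon bases of Irf1, 3.4% overlap Gm17334 on the opposite strand.

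**Figure D5:**
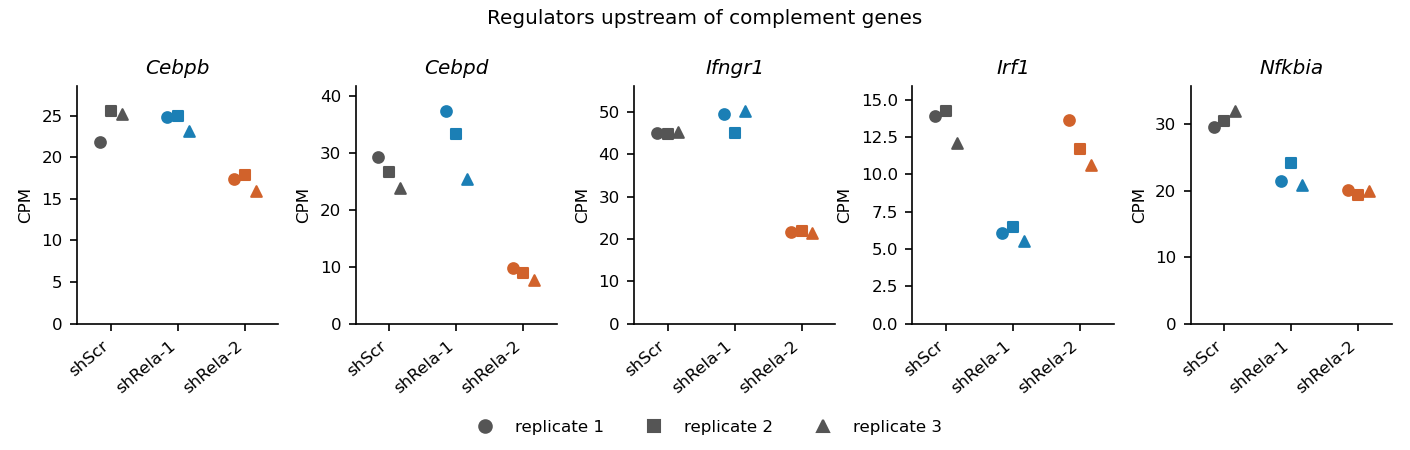
Levels in CPM (y axes, from 0) of 5 regulators upstream of complement genes in the 3 samples of each group, with symbols for the replicate number. Cebpb, Cebpd and Ifngr1 are lowest in the shRela-2 samples, Irf1 is lowest in the shRela-1 samples (5.54 to 6.49 CPM), and Nfkbia is below shScr in both.

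Another 52 genes of the complement system gave the surroundings of the 9 members. Of these, 35 were tested, and 2 rose and 0 fell with shRela-1, beside 12.3% and 12.4% of all genes (0 fell also at an unadjusted p under 0.05, by DESeq2 and by limma voom). With shRela-2, 1 rose and 4 fell, beside 15.4% of all genes tested in each direction. Between the hairpins 1 was higher with shRela-2 and 7 were lower, beside 20.0% and 19.9%. The counts that fell lie near these shares with shRela-2 and between the hairpins. The 0 that fell with shRela-1 and all counts that rose lie below their shares. The medians of the log2 fold changes were 0.03, -0.19 and -0.14. With the replicate block 11 of the 35 fell and 3 rose with shRela-2 (22.2% of all genes in each direction). In the same fit 5 rose and 1 fell with shRela-1 (20.4% and 18.9% of all genes). Between the hairpins 12 were then lower with shRela-2 and 1 was higher (26.1% and 25.8%).

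C2, the partner of C4 in the classical C3-cutting enzyme, moved against C3. It stood at 6.18 to 7.58 CPM in shScr, 6.12 to 6.55 CPM under shRela-1, and 7.60 to 8.95 CPM under shRela-2, and rose with shRela-2 by 0.31 ± 0.10 (adjusted p = 0.0450). This call was lost without any 1 of 7 libraries (adjusted p up to 0.150) and kept without shScr replicate 3 or shRela-2 replicate 2. It was also lost with no filter on low counts and with only the 2 groups compared in the fit, where 0 of the other complement genes rose with shRela-2 by edgeR. Against shRela-1 the difference was 0.37 (adjusted p = 0.0148), lost without replicate 1 of either hairpin (0.0503 for shRela-1 and 0.0580 for shRela-2). Exons of C2 are shared with Gm20547, as those of Cfb are.

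Cfp, which encodes properdin, the stabiliser of the alternative C3-cutting enzyme, stood at 10.7 to 13.8 CPM in shScr and 8.65 to 10.0 CPM with shRela-2 (-0.39 ± 0.10, adjusted p = 0.0142). Without shScr replicate 2 or shRela-2 replicate 1 its adjusted p was 0.0568 or 0.0537. Itgam, a chain of complement receptor 3 and itself among the macrophage markers, had 17.1 to 23.6 CPM in shScr and 11.6 to 16.4 CPM with shRela-2 (-0.54 ± 0.15, adjusted p = 0.0171). Its call was lost without shScr replicate 2 (0.0630), shRela-2 replicate 1 (0.0605) or shRela-2 replicate 3 (0.0620), and 68.7% of its exon bases are shared with Gm49368. C1qbp, a C1q-binding protein found mostly in mitochondria, changed by -0.17 ± 0.0372 with shRela-2 (adjusted p = 0.00580). The complement receptor gene Cr2, named here after its values were seen and low at 0.534 to 0.827 CPM in shScr, was the other gene that fell (-1.20 ± 0.31, adjusted p = 0.0126, or 0.0552 if shScr replicate 3 and 0.0520 if shRela-2 replicate 2 is left out).

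Cd93, a surface protein first described as a C1q receptor, rose with shRela-1 from 6.12 to 9.01 CPM in shScr to 9.79 to 12.8 CPM (0.60 ± 0.17, adjusted p = 0.0244). The call was lost without shScr replicate 1 (0.0730), shScr replicate 3 (0.0957) or shRela-1 replicate 2 (0.0878). The other gene that rose with shRela-1 was Colec10, a collectin named after its values were seen, with a mean of 0.789 CPM in shScr and 1.73 CPM with shRela-1 (1.13 ± 0.21, adjusted p = 0.00323). Colec12, a scavenger receptor of the collectin family, was lower with shRela-2 than with shRela-1 (-0.29 ± 0.10, adjusted p = 0.0458), and this call was lost without any 1 of 5 libraries (adjusted p up to 0.160).

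The late components were nearly silent. Of 7 genes of the membrane attack complex only C8g was tested, at means of 1.51, 1.75 and 1.99 CPM, and it passed in none of the contrasts (adjusted p = 0.0557 with shRela-2). Hc, the gene of C5, had at most 8 counts in a sample. Among the surface and fluid regulators other than the members, Cr1l (35.2 CPM in shScr), Cd59a (22.7 CPM) and Clu (12.5 CPM) were expressed. With the block 2 of the 11 tested regulators, Cr1l and Cd59a, rose with each hairpin, beside 20.4% and 22.2% of all genes, and without it their adjusted p ran from 0.0803 to 0.374. With the block 1 regulator fell with shRela-2, Cpn2, named after its values were seen (-0.92, adjusted p = 0.00214, or 0.0585 without the block). The 17 genes not tested included C1rb, Mbl1, Mbl2, Fcnb, Cfd, Hc, C6, C7, C8a, C8b, C9, C4bp, Cd55b, Vtn and Csmd2.

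Genes whose pattern over the 9 samples was closest to that of a member were found by the root mean square distance of log2 CPM, each gene centred on its shScr mean, among 2289 genes. For C3, whose own deviation was 0.73, these were Tug1 (distance 0.15), Pgm3 (0.17), Ccnd2 (0.18) and Dtwd1 (0.19). Pgm3, for example, had mean deviations of -0.45 under shRela-1 and -1.26 under shRela-2, beside -0.39 and -1.19 for C3. For Cd55, with a deviation of 0.53, they were Fam150a (0.12), Hfe (0.16), Ube2c (0.19) and Fgf10 (0.19). C4b had no close match: the nearest genes, Fmod and Gabra3 (both 0.38), Ces2e and Ces2g (both 0.39), lay farther off, beside a deviation of 0.84.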

How the data were processed

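RNA from 9 samples in 3 groups was purified on RNeasy columns and sequenced with the TruSeq RNA v2 kit, which does not mark strand, per the labels' protocols. Whole-number counts per gene were deposited by the authors. Tools listed in the submitters' processing notes are featureCounts 1.4.6 from Subread, Bowtie2 2.2.6 and TopHat2 2.0.14, with the mm10 build. Counts of 2 (7984 of them) were more frequent than counts of 1 (2764). No source used here says whether read mates were counted separately, and the limits given cover counting error only.

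Of 24062 genes, 3924 had no count and 15369 passed edgeR's filter on low counts. The counts were scaled by TMM and tested with edgeR 4.0.16 in R 4.3.3 by the quasi-likelihood test, with all 9 samples in 1 fit and Benjamini-Hochberg adjustment over all genes tested. A gene rose or fell at an adjusted p under 0.05. The p-values set a difference between groups against the spread between these samples. The labels do not say that the replicates are separate cultures, so whether the p-values extend to other cultures is not known. CPM values use the scaled totals, and RPKM values use exon lengths of GENCODE gene models. The test was checked on simulated data.

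Same-numbered samples deviated together: the deviations from the group means correlated at 0.189 to 0.415 in 9 same-numbered pairs and at -0.306 to 0.0459 in 18 others. The numbers come from the sample titles.

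Alternatives were DESeq2 1.42.0, its size factors in edgeR, limma 3.58.1 with voom, no filter, only the groups compared, the replicate block and leaving out each sample. Named were all members, other complement genes called in any contrast whose log2 CPM averaged 1 or more, the called regulators, and the 4 genes nearest in pattern to C3, C4b and Cd55. The nearest genes came from those at the same minimum level that deviated by 0.3 or more. The members and lists were chosen with earlier results of these data known. Some genes of the wider complement list are not reported here by name.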

Additional observations from a re-analysis of the deposited data

Results flagged for a closer look

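The effects of the hairpins on 3 complement genes differed by the direct test between shRela-2 and shRela-1 (edgeR's quasi-likelihood test). The difference on the log2 scale was -0.81 for C3 (adjusted p = 0.000631), 0.73 for C1rl (adjusted p = 0.00548) and -1.20 for Cd55 (adjusted p = 2.53e-05). Each passed without each of the 9 libraries in turn. The samples of the hairpins did not overlap for these 3 genes. The same sign in 3 of 3 same-numbered pairs follows from that and adds nothing to it.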

How the results depend on the processing

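Of the members' log2 fold changes under the alternatives, 324 kept their sign and side of the threshold, 22 passed only under the alternative, 3 no longer passed and 11 changed sign. With the replicate block, the pairing by number gave 2 members that rose and 2 that fell under shRela-1. It gave 1 and 4 under shRela-2, and 4 that were lower between the hairpins. DESeq2 and limma voom each gave 1 that fell under shRela-1, and 1 that rose under shRela-2, as no filter on low counts did for the latter. Without single libraries, 0 to 1 fell with shRela-1, 0 to 1 rose and 1 to 3 fell with shRela-2, and 2 to 4 were lower between the hairpins. C4b changed sign with shRela-1 without shRela-1 replicate 2 (-0.38) or shScr replicate 1 (-0.04), and with shRela-2 without shRela-2 replicate 2 (-0.03) or shScr replicate 1 (-0.07). Between the hairpins its sign changed by limma voom (0.22), under the replicate block (0.08), with shRela-1 replicate 2 left out (0.68) and with shRela-2 replicate 1 left out (0.23). Over all libraries left out C4b ran from -0.38 to 0.79, -0.07 to 0.76 and -0.45 to 0.68 in the 3 contrasts. C1s1 changed sign without shRela-1 replicate 3 with shRela-1 (-0.01, range -0.01 to 0.14), and without shRela-2 replicate 1 (0.04) or shScr replicate 3 (0.02) with shRela-2 (range -0.11 to 0.04). The cause was not tested. Depth limits Cfi, which had at most 10 counts in a sample.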
